A study of Homo sapiens with 8 samples.

Results

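Mitotic-high cells were the sequenced MDA-MB-231 cells richest in transcripts of late cell-cycle genes, selected on those transcripts themselves, and the question was which transcripts differed in them after ionizing radiation. For each cell a mitotic index was taken as the summed level of TOP2A, MKI67, CCNB1, CDC20, PLK1, AURKA, CENPF, UBE2C, BIRC5 and TPX2 in CPM, counts per 1000000 counts of the cell. Of 378 barcodes, 363 had at least 1000 detected genes and 5000 counts and were kept, and the 121 kept cells with the highest index were the mitotic-high cells. The 242 other kept cells served for comparison. MDA-MB-231 is a human triple-negative breast cancer line. Single cells had been drawn by mouth pipette from cultures in DMEM with serum, and their RNA was amplified by a modified Smart-seq2 protocol into 3' mRNA libraries. There were 4 groups of 2 libraries each: wild type (WT) left untreated, WT irradiated with 5 Gy and taken 4 h later, ATM knockdown left untreated, and irradiated ATM knockdown at this dose and time. How the knockdown was made and whether it was 1 clone is not given in the sources used here.

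Proliferating cells build up the transcripts of mitotic regulators late in the cycle, through G2 and M, and destroy or silence them after division. TOP2A untangles sister chromatids, CCNB1 is the mitotic cyclin, PLK1 and AURKA are mitotic kinases, CDC20 and UBE2C serve the anaphase-promoting complex, and MKI67 coats mitotic chromosomes. Ionizing radiation breaks both strands of DNA, and the kinase ATM, recruited to such breaks, signals to checkpoints that hold cells before replication and before mitosis and can also activate the transcription factor NF-kB.

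The mitotic-high cells of a library held 3345265 to 15214179 counts in all, and single ones 17210 to 1834074. The median mitotic-high cell of a library had 215423 to 728822 counts and 5690.0 to 7965 detected genes. Mitochondrial transcripts made up 8.13% to 12.04% of their counts per library. The largest cell held 12.1% to 25.3% of its library's mitotic-high counts, with the highest shares in the irradiated knockdown libraries, where only 9 and 7 cells were mitotic-high. No cell name occurred in more than 1 library. Whether the 2 libraries of 1 group stem from separate cultures is not in the labels, so p-values measure no more than how far these libraries lie apart, and that spread may be technical. All WT libraries carry 1 title suffix and all knockdown libraries another, so that handling and genotype cannot be told apart.

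Counts of TOP2A, MKI67, CCNB1 and CDC20 were present in all 121 mitotic-high cells and of PLK1 in 110. All 121 also had counts of the MDA-MB-231 markers VIM, CD44, KRT8 and KRT18, and 115 had counts of EGFR. The leukocyte marker PTPRC was detected in 2 cells and the progesterone receptor gene PGR in 1. ESR1, FOXA1, CD3E, MS4A1, PAX2 and LHX1, further markers of luminal, leukocyte and kidney cells, are not listed in the tables. CD14 was detected in 59 cells, GATA3 in 78 and SIX2 in 26. The 7 listed leukocyte markers of 14 summed to 4.29 to 62.7 CPM per library, and the 5 listed kidney markers of 9 to 1.75 to 34.3 CPM. The luminal breast markers, 13 of 15 listed, summed to 1097 and 1101 CPM in WT without irradiation and to 572 and 703 CPM with it, and their part in the WT results was not tested.

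The targeted gene comes first as a check of the labels. In mitotic-high cells ATM (ENSG00000149311.18; GRCh38, chromosome 11, 108222484 to 108369102) stood at 56.3 and 17.3 CPM in WT without irradiation and at 30.2 and 21.97 CPM with it. The knockdown libraries held 6.15 and 23.9 CPM when untreated and 8.55 and 7.17 CPM when irradiated. Replicate 2 of the untreated knockdown thus lay within the WT range, against its label, while the other 3 knockdown libraries lay below it. With every cell thinned to 50000 counts, ATM was detected in 8 of the 22 mitotic-high cells of the library labelled untreated knockdown replicate 2 that reached this depth, against 3 of 10, 3 of 9 and 2 of 7 in the other knockdown libraries and 13 of 19, 10 of 14, 10 of 20 and 5 of 14 in the WT libraries. By this measure the library was close to the other knockdown libraries and also to the lowest WT library, at 5 of 14. The measure thus cannot decide between the labels. The irradiation contrast of ATM passed in neither genotype, with a log2 change of -0.45 (SE 0.743, edgeR adjusted p = 0.972) in WT and -0.95 (SE 0.769, edgeR adjusted p = 0.877) in the knockdown. Most results below that rest on this library are followed by their values without it.

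The lowest index among the members was 2602.5 CPM and the next 2628, while the highest among the other cells were 2516 and 2414 CPM. Members had a median of 4861 CPM and other cells of 553 CPM. Mitotic-high cells were 34.4% of the untreated WT cells (33 of 96, Wilson 95% interval 25.6 to 44.3) and 38.5% of the irradiated WT cells (37 of 96, 29.4 to 48.5). They were 41.2% of the untreated knockdown cells (35 of 85, 31.3 to 51.8) and 18.6% of the irradiated ones (16 of 86, 11.8 to 28.1). Per library the untreated knockdown shares were 29.3% and 52.3% and the irradiated knockdown shares 20.9% and 16.3%, so those groups did not overlap, and the higher untreated share is that of the library labelled replicate 2, without which the untreated share is 29.3%. In WT the shares were 39.6% and 29.2% without and 43.8% and 33.3% with irradiation, and the groups overlapped. The rule itself sets these shares and they were given no test. The intervals cover the sampling of cells only.

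**Figure D1:**
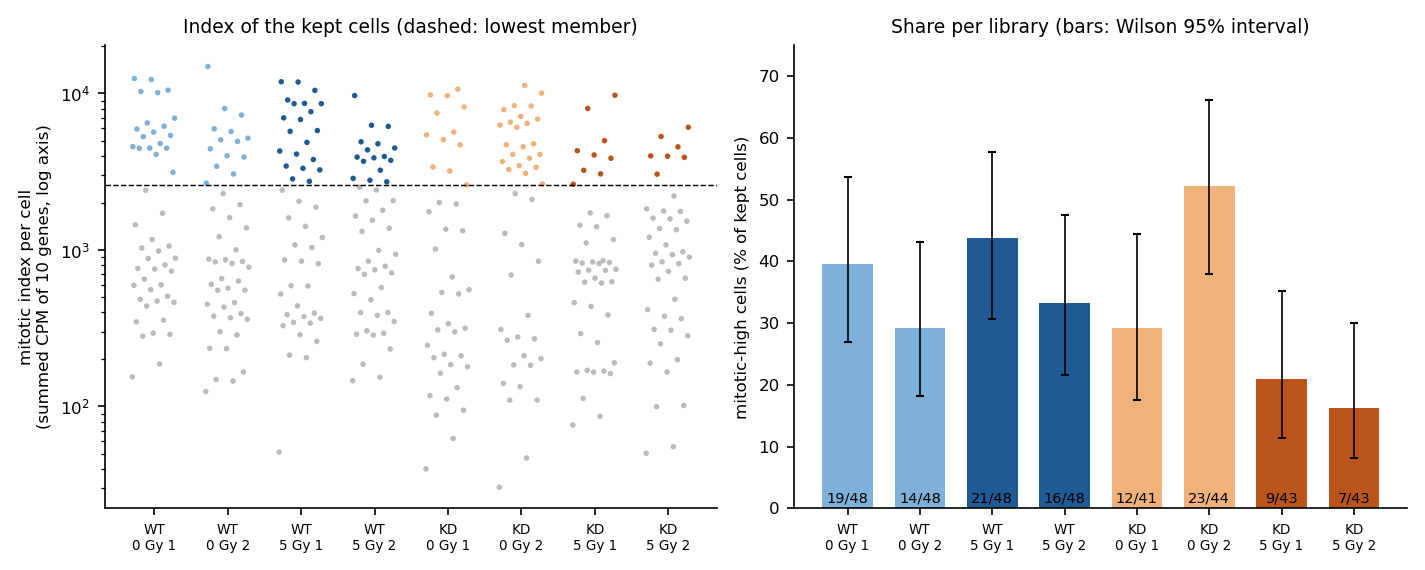
Left, mitotic index of every kept cell by library (summed CPM of 10 genes, log axis), with mitotic-high cells in colour, other cells in grey and a dashed line at the lowest member, 2602.5 CPM. Right, mitotic-high cells as a percentage of kept cells per library (0 Gy, untreated, and 5 Gy, irradiated), with Wilson 95% intervals and the numbers of cells: both irradiated knockdown libraries, at 20.9% and 16.3%, lie below both untreated ones, at 29.3% and 52.3%.

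The index genes chose the cells and are given as values only. Summed over the 10 genes, mitotic-high cells of untreated WT libraries held 6952 and 5270 CPM. Those of irradiated WT libraries held 7037 and 3945 CPM, so the irradiated libraries lay far apart. CCNB1 was at 620 and 711 CPM without and at 882 and 294 CPM with irradiation. Group means therefore hide this spread. TOP2A averaged 1258 ± 305 CPM without and 1047 ± 234 CPM with irradiation (SD, n = 2 and 2, here and below), UBE2C 1118 ± 318 and 1129.8 ± 487 CPM, and CCNB1 666 ± 63.7 and 588 ± 416 CPM. Of the 10 only AURKA had WT groups that did not overlap, at 481 ± 76.3 and 281 ± 154 CPM, where 40.3% of all genes tested did not overlap in either direction. In the knockdown all 10 index genes had a lower mean after irradiation. The libraries of MKI67, CCNB1, PLK1, CENPF, BIRC5 and TPX2 did not overlap there, 6 of 10 genes. The share of all genes tested that were lower without overlap was 17.8%, and nothing is read from the count, since these genes chose the cells. MKI67 stood at 772 ± 55.6 and 629 ± 137 CPM, and CENPF, a kinetochore protein, at 1001 ± 29.4 and 752 ± 137 CPM. PLK1 stood at 199 ± 35.2 and 116 ± 41.2 CPM.

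In WT mitotic-high cells irradiation lowered a set of reductase, transporter and epithelial genes and raised SLC3A2. Counts were summed over the mitotic-high cells of each library, and 11201 genes with enough counts were tested with edgeR's quasi-likelihood test, with p-values adjusted over all of them by Benjamini and Hochberg and a threshold of 0.05. A log2 change is the fitted change after scaling of the libraries, irradiated minus untreated, and it passed when its adjusted p was below the threshold. In WT 16 genes passed (0.143% of those tested), 1 upward (0.00893%) and 15 downward (0.134%), while unadjusted p-values were under 0.05 for 776 genes (6.93%). The number of passing genes moved in both directions with the library left out, in fits that leave a lone library in a group. It fell to 10 without cells of more than 2 times their library's median count, of which 7 were among the 16.

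AKR1B1 makes sorbitol from glucose as aldose reductase (ENSG00000085662.13; chromosome 7, 134442350 to 134459284). It was at 7819.6 and 10031 CPM in WT before and at 1412 and 1154 CPM after irradiation. In the knockdown it was at 943 and 1374 CPM without and 1915 and 1473 CPM with irradiation. Both untreated WT libraries thus lay above all 6 others. The WT log2 change was -2.77 (SE 0.202, edgeR adjusted p = 4.9e-07).

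AKR1C1 (ENSG00000187134.13, chromosome 10, 4963253 to 4983283), which reduces steroids and lipid aldehydes, was at 619 and 792 CPM in untreated and 30.2 and 51.2 CPM in irradiated WT libraries, and at 21.7 to 60.7 CPM in the 4 knockdown libraries. Its WT log2 change was -4.08 (SE 0.410, edgeR adjusted p = 4.6e-05). AKR1C2 and AKR1C3, close paralogs on the same chromosome whose reads the counting could have split, also fell. AKR1C2 went from 144 and 150.1 to 9.82 and 5.67 CPM (log2 change -4.22, SE 0.533) and AKR1C3 from 1299.6 and 1689 to 344 and 518 CPM (log2 change -1.76, SE 0.313). The AKR1C2 call was lost without the largest cells, at an adjusted p of 0.307 from edgeR.

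SLC5A3, the sodium-coupled transporter that takes up the osmolyte myo-inositol, and MRPS6, a protein of the small mitochondrial ribosome, overlap on chromosome 21 (34073570 to 34106262 and 34073224 to 34143034). RefSeq gives both genes the same start window, chr21:34073328-34073627 on the plus strand of GRCh38.p14. SLC5A3 was at 1337 and 1489.8 CPM in untreated and 146 and 175 CPM in irradiated WT libraries, and at 7.77 to 87.8 CPM in the knockdown. MRPS6 was at 1145 and 1121, then 289 and 332 CPM in WT, and at 102 to 149 CPM in the knockdown. For both genes the untreated WT libraries again lay above all others, with WT log2 changes of -3.11 (SE 0.458, edgeR adjusted p = 0.00402) and -1.83 (SE 0.221, adjusted p = 0.000474). Both genes lie on the plus strand, so counting by strand could not separate reads from the span they share. Reads of the pair may thus be mixed, and their calls may not be independent.

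These genes were members of a list of 9 osmotic and aldo-keto reductase genes, of which 9 were tested, 8 were lower in WT with a median log2 change of -1.83, and 6 passed. Over all genes tested 5610 of 11201 were lower and the median was -0.00. The list had been drawn up with earlier results of these data known, so its count is no independent evidence of its direction. Its members that did not pass were AKR1B10, the taurine transporter gene SLC6A6 and NFAT5, the transcription factor of the osmotic response, which was at 27.2 and 32.1 CPM without and 45.6 and 44.4 CPM with irradiation. Summed over the list, the untreated WT libraries held 12431 and 15354 CPM and the other 6 libraries 1561 to 2321 CPM. In the knockdown none of the 9 passed and the median was -0.21. It became 0.47 without the largest cells, -0.37 and -0.52 without irradiated knockdown replicates 1 and 2, and -0.37 without untreated knockdown replicate 2. The fall in WT was not particular to mitotic-high cells. In the other WT cells 7 of the 9 were lower with a median of -1.57, and 6 passed, where 119 of 11965 genes did (0.995%). Those cells held 11867 and 10776 CPM of the list without and 3268 and 3442 CPM with irradiation.

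Further genes fell in WT mitotic-high cells. The transcription factor gene SOX4 went from 238 and 665 to 5.70 and 29.1 CPM, although 1 cell held 44.0% of its counts. TRIM29, a tripartite motif protein of epithelia, went from 74.1 and 87.3 to 11.6 and 6.52 CPM (log2 change -3.13, SE 0.536, edgeR adjusted p = 0.0162). The tight junction gene CLDN4 went from 246 and 265 to 82.9 and 82.7 CPM (log2 change -1.59, edgeR adjusted p = 0.0487). It was the 1 luminal marker that passed, of 11 tested from a list of 15, of which 10 were lower in WT (median -0.44) and 9 in the knockdown (median -0.36). With 1 library left out these medians ran from -1.25 to -0.45 in WT and from -0.84 to -0.01 in the knockdown, the last without untreated knockdown replicate 2. The salivary cystatin gene CST4 went from 171 and 361 to 7.46 and 12.5 CPM, with 32.2% of its counts in 1 cell, and its call was lost without the largest cells (edgeR adjusted p = 0.591). NADK2, the mitochondrial NAD kinase, went from 221 and 202 to 42.2 and 59.5 CPM. HSPH1, a large heat shock protein that acts as a nucleotide exchange factor, went from 623 and 476 to 212 and 209 CPM, a log2 change of -1.35. The tetraspanin gene CD9, the protease inhibitor gene TIMP3 and the acute phase gene SAA1 fell as well, with log2 changes of -1.26, -1.08 and -1.21, of which the first 2 genes lie outside the rule for named genes. Of the 13 WT calls that the rule for named genes took, AKR1B1, AKR1C1, MRPS6, SLC5A3 and SOX4 passed under every alternative run, 5 in all. The AKR1C3 call was lost without irradiated WT replicate 1, that of NADK2 without irradiated or untreated WT replicate 1, and that of TRIM29 without irradiated or untreated WT replicate 2. That of CLDN4 was lost without either irradiated WT library or untreated WT replicate 2. That of HSPH1 was lost without either irradiated WT library or untreated WT replicate 1. With all libraries kept, the calls of AKR1C3, NADK2, TRIM29 and CLDN4 were lost without the largest cells and in a smaller mitotic-high class. That of AKR1C3 was also lost with DESeq2's Wald test. Those of TRIM29 and CLDN4 were also lost on mean CPM per cell with limma and with thinned cells. That of CLDN4 was lost as well on an index of mean log values and with an equal share of each library.

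The upward call was SLC3A2 (ENSG00000168003.16, chromosome 11, 62856102 to 62888875), the heavy chain of heteromeric amino acid transporters. It was at 88.8 and 87.7 CPM in untreated and 239 and 229 CPM in irradiated WT libraries, and at 281 and 254, then 401 and 325 CPM in the knockdown. The WT log2 change was 1.44 (SE 0.237, edgeR adjusted p = 0.0121), and the call was lost without the largest cells and on mean CPM per cell with limma, at adjusted p-values of up to 0.339. Its light chain SLC7A5, which carries leucine and other large amino acids, was at 52.8 and 79.8 CPM, then 166 and 145 CPM in WT, without overlap, but did not pass (log2 change 1.26, edgeR adjusted p = 0.117). Further genes of small p that did not pass upward were TMEM201, a nuclear envelope protein (2.78), the serine synthesis enzyme gene PSAT1 (1.64) and the nucleolar helicase gene DDX21 (1.11), at adjusted p-values from edgeR of 0.0789, 0.0988 and 0.0789.

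**Figure D2:**
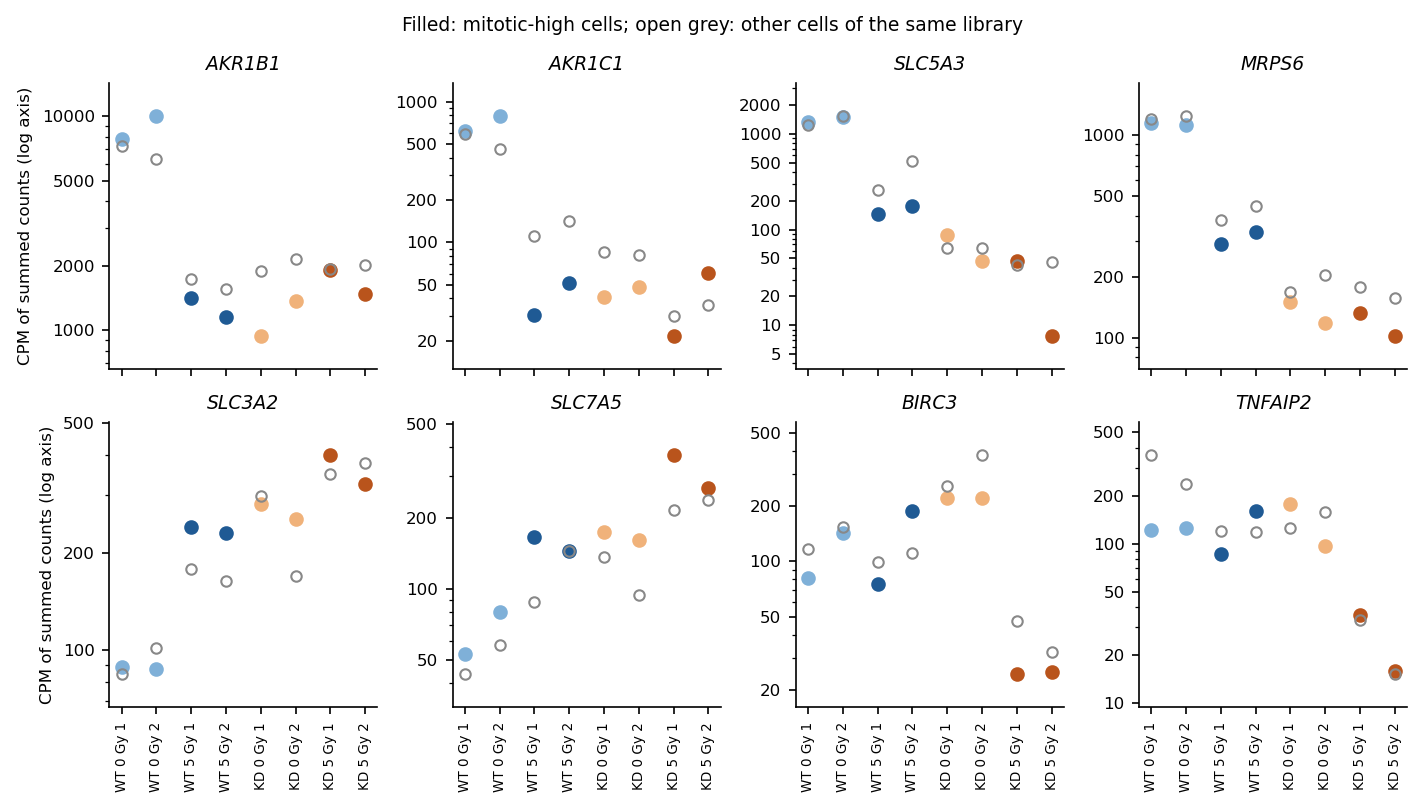
Level of 8 genes per library in CPM of summed counts (log axes), with filled points for mitotic-high cells and open grey points for the other cells of the same library (0 Gy, untreated; 5 Gy, irradiated; KD, ATM knockdown). In the upper row both untreated WT libraries lie above all other libraries in either class of cells, and BIRC3 in the irradiated knockdown, at 24.3 and 25.1 CPM, lies below every other group of mitotic-high cells.

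In ATM knockdown mitotic-high cells irradiation lowered BIRC3 and CXCL2, both targets of NF-kB. No other gene passed: 2 of 11201 genes did (0.0179%), both downward, and for 746 genes (6.66%) the unadjusted p was under 0.05. DESeq2's Wald test called 55 genes and limma on mean CPM per cell 5. The count was 15 and 18 without untreated WT replicates 1 and 2, 14 and 11 without irradiated WT replicates 1 and 2, 24 and 44 without untreated knockdown replicates 1 and 2, and 37 and 22 without irradiated knockdown replicates 1 and 2. Upward, the 5 genes of smallest p did not pass, with log2 changes of 2.02 for PLAT, the tissue plasminogen activator, 1.42 for the adenosine receptor gene ADORA2B, 2.07 for GULP1, 1.23 for NR2F2 and 1.88 for TGFB2 (edgeR adjusted p = 0.132 to 0.190).

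In NF-kB signalling, dimers of RELA, NFKB1 and their relatives are held in the cytoplasm by the inhibitor NFKBIA until a stimulus frees them to bind short GC-flanked sites near target genes, among them chemokine, cytokine and survival genes.

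The start windows of both passing genes, and for comparison that of the chemokine gene CXCL8, which did not pass, are shown to let a reader see such letters, as 250 bases before to 50 after the start from RefSeq (GRCh38.p14), with matches to GGNNNTTCC, searched on both strands, in capitals. CXCL2 lies at chr4:74099146-74099445 on the minus strand, CXCL8 at chr4:73740319-73740618 on the plus strand and BIRC3 at chr11:102317234-102317533 on the plus strand.
CXCL2: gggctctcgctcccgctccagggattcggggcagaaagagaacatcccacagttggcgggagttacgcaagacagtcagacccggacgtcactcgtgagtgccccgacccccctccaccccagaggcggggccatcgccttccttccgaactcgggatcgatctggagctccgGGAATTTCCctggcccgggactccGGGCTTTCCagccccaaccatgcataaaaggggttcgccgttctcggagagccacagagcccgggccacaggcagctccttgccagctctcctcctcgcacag
CXCL8: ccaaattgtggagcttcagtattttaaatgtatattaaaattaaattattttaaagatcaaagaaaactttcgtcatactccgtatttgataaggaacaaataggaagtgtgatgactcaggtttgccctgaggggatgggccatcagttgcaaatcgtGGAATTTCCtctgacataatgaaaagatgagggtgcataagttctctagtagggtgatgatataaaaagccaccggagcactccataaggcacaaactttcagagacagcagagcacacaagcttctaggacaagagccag
BIRC3: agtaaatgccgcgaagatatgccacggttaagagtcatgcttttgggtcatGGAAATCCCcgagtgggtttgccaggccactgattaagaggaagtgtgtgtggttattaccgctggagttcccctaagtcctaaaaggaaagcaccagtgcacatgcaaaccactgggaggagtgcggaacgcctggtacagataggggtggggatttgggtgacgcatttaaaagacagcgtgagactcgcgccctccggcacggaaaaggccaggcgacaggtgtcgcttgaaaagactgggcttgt
CXCL2 has 2 matches, CXCL8 has 1 and BIRC3 has 1. These letters occur in 20.1% of the 27305 windows searched and in 17 of the 26 NF-kB list members that have a window (65.4%). A match is a description of letters, not a site shown to be bound.

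BIRC3 (ENSG00000023445.13, chromosome 11, 102317450 to 102339403) encodes an inhibitor of apoptosis and a ubiquitin ligase of the NF-kB pathway. It was at 222 and 220.1 CPM in untreated knockdown libraries and at 24.3 and 25.1 CPM in irradiated ones. The WT libraries held 80.8 and 143 CPM without and 75.4 and 188 CPM with irradiation, and overlapped. The knockdown log2 change was -3.17 (SE 0.420, edgeR adjusted p = 0.00333), and -3.18 without the library labelled untreated knockdown replicate 2. The call was lost, at adjusted p-values of up to 0.539, when the members were the 182 highest cells, were ranked by a mean of log values or were taken in equal share from each library. BIRC2, its neighbour and paralog, was at 156 and 99.7, then 50.2 and 53.2 CPM, and did not pass (edgeR adjusted p = 0.243).

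CXCL2 (ENSG00000081041.8, chromosome 4, 74097035 to 74099293), a neutrophil chemokine, had 464 and 551 counts in the untreated knockdown libraries (86.5 and 58.1 CPM) and 0 and 2 counts in the irradiated ones. Per count sequenced this was 270.2-fold lower, with a 95% interval of 74.6 to 2234 that covers counting error only (edgeR adjusted p = 0.00333). In WT it was at 28.3 and 23.4, then 8.84 and 45.6 CPM, and the groups overlapped. CXCL2 passed under every alternative run, the fit without the library labelled untreated knockdown replicate 2 among them, at adjusted p-values of up to 0.0340.

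The other chemokine and cytokine genes of the list did not pass in the knockdown, though most had few or no counts left. CXCL8, the main neutrophil attractant, was at 157 and 116 CPM in untreated and 7.01 and 0 CPM in irradiated knockdown libraries (edgeR adjusted p = 0.134), and 1 cell held 31.6% of its counts. CXCL1 had 383 counts over the untreated and 2 over the irradiated libraries, 102-fold lower per count sequenced (95% counting interval 28.0 to 845, edgeR adjusted p = 0.0976). CXCL3 had 213 and 1 (113-fold lower, interval 20.1 to 4499.9). The alarmin gene IL1A had 111 and 0, at least 19.7-fold lower against a floor of 3 counts over the group. IL6 was at 68.4 and 120.5, then 19.9 and 0.299 CPM, with 24.0% of its counts in 1 cell. The myeloid growth factor gene CSF2 was at 365 and 173, then 26.5 and 20.03 CPM. TNFAIP2, a TNF-induced protein, was at 178 and 96.7, then 35.9 and 15.8 CPM, and the death ligand gene TNFSF10 at 329 and 139.6, then 21.0 and 78.0 CPM. The inhibitor NFKBIA itself was at 177 and 295, then 122 and 126 CPM. CSF1, another myeloid growth factor gene and no member of the list, was at 310.0 and 312, then 106 and 119 CPM (edgeR adjusted p = 0.0976). None of the knockdown groups of CXCL8, CXCL1, IL6, CSF1, CSF2, TNFAIP2, TNFSF10 or NFKBIA overlapped. Over all genes tested in the knockdown, 33.5% did not overlap in either direction. TNFSF10 and NFKBIA were named after their values were seen, so nothing is read from this tally.

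The NF-kB target list was drawn up with earlier results of these data known, so its counts are no independent evidence of its direction. Members could also pass the filter on low counts through the untreated knockdown libraries alone, which favours members that were high there. Of the 30 members of the list, 25 passed this filter. In the knockdown 23 of them were lower, 1 was higher, 2 passed and 15 were lower without overlap, where 17.8% of all genes tested were. Their median log2 change was -1.97, or -1.80 with the 3 members that had a group at 0 set to their bound, beside -0.03 over all genes tested. It stood at -1.48 without the library labelled untreated knockdown replicate 2. In WT 14 were lower and 11 higher with a median of -0.13. Its sign turned with the library left out: it was -0.20 and -0.56 without irradiated WT replicates 1 and 2 and 0.10 and 0.02 without untreated WT replicates 1 and 2. Summed over the list, the mitotic-high cells held 2178 and 1702 CPM in the untreated and 586 and 558 CPM in the irradiated knockdown libraries. In WT they held 1859.7 and 1733, then 1324 and 1802 CPM. The other cells of the knockdown libraries held 3421 and 3687, then 888 and 693 CPM. There 25 of 28 tested members were lower and 8 passed, where 26 of 11965 genes did (0.217%).

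Whether the response depended on genotype was tested as the knockdown change minus the WT change. Of 11201 genes, 11 passed (0.0982%), 8 with a higher value in the knockdown (0.0714%) and 3 with a lower (0.0268%), and 702 genes (6.27%) had unadjusted p-values under 0.05. The count moved in both directions with the library left out, in fits that leave a lone library in a group. AKR1B1 differed by 3.31 (SE 0.275, edgeR adjusted p = 4.2e-06) and AKR1C1 by 3.95 (SE 0.541, adjusted p = 0.00432). These 2 differed already without irradiation, at the levels given above.

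BIRC3 differed by -3.44 (SE 0.559, edgeR adjusted p = 0.0170) and CXCL2 passed as well (adjusted p = 0.0143). SAA1, a secreted acute phase protein, was at 1351 and 1292, then 537 and 581 CPM in WT and at 845 and 1070.2, then 2160.0 and 1082 CPM in the knockdown. Its groups overlapped in neither genotype, and the difference was 1.95 (SE 0.332, edgeR adjusted p = 0.0257). TNFSF15, a TNF family ligand, was at 177 and 119, then 17.3 and 4.11 CPM in WT, while the knockdown stood at 2.98 and 0.316, then 5.48 and 10.5 CPM, levels of few counts (difference 6.15, SE 1.11, edgeR adjusted p = 0.0415). PSAT1 was at 21.5 and 31.6, then 86.0 and 75.4 CPM in WT and at 136 and 165, then 75.4 and 67.0 CPM in the knockdown (difference -2.73, SE 0.497, edgeR adjusted p = 0.0424). HSPH1 differed by 1.69 (SE 0.316, edgeR adjusted p = 0.0474), with knockdown levels of 202 and 221, then 291 and 248 CPM. MRPS6, PLAT and ALPP were the remaining 3 calls. Leaving out the library labelled untreated knockdown replicate 2 left 1 library in its group. The MRPS6 call was then lost (1.46). The other differences were -3.45 for BIRC3, 2.12 for SAA1, 5.16 for TNFSF15, -2.59 for PSAT1 and 1.74 for HSPH1. They were 3.15 for PLAT, 3.59 for AKR1B1 and 4.07 for AKR1C1, and CXCL2 again had the lower change in the knockdown. The PSAT1 call was lost without untreated or irradiated WT replicate 1, and that of HSPH1 also without irradiated WT replicate 2 or untreated knockdown replicate 1. With all libraries kept, the BIRC3 call was lost in a larger class and on an index of mean log values. It was also lost with an equal share of each library, at adjusted p-values from edgeR of up to 0.685. The TNFSF15 call was lost on mean CPM per cell with limma (adjusted p = 0.248). That of PSAT1 was also lost with limma, without the largest cells and with thinned cells. That of HSPH1 was also lost with at least 3000 genes per cell, without the largest cells and in a smaller class. Of the 7 calls named by the rule, AKR1B1, AKR1C1 and SAA1 passed under every alternative run.

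For the change averaged over both genotypes, SLC7A5, SLC3A2 and POLE3 passed upward (0.0268%) and 17 genes downward (0.152%), 20 of 11201 in all (0.179%). Unadjusted p-values were under 0.05 for 937 genes (8.37%). Of the 17, AKR1B1, AKR1C1, MRPS6, CXCL2 and BIRC3 also passed as differing between genotypes, so their average describes no shared fall. AKR1B1 had an average of -1.12 but a log2 change of 0.54 in the knockdown. SLC7A5 had a mean log2 change of 1.09 (SE 0.200, edgeR adjusted p = 0.0276), and its knockdown libraries were at 175 and 162, then 372 and 267 CPM. SLC3A2 had a mean log2 change of 0.94 (SE 0.165, edgeR adjusted p = 0.0217). Both transporter calls were lost without the largest cells and on mean CPM per cell with limma. Without the library labelled untreated knockdown replicate 2 the mean log2 changes of SLC7A5 and SLC3A2 were 1.06 and 0.89. POLE3, a histone-fold subunit of DNA polymerase epsilon, was at 130.3 and 101, then 204 and 227 CPM in WT and at 149.7 and 153, then 293 and 272 CPM in the knockdown (mean log2 change 0.91, SE 0.176, edgeR adjusted p = 0.0348). All 4 irradiated libraries of POLE3 lay above all 4 untreated ones, but the call was lost without untreated WT replicate 2, irradiated WT replicate 2 or untreated knockdown replicate 2, at adjusted p-values of up to 0.120 from edgeR.

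Among the genes lowered on average, TRIM29 had the same direction in each genotype, with knockdown libraries at 48.3 and 44.3, then 12.5 and 12.9 CPM (mean log2 change -2.50, SE 0.371, edgeR adjusted p = 0.00509). KIF20A, the kinesin that brings the chromosomal passenger complex to the central spindle, was at 146 and 160.4, then 34.2 and 23.3 CPM in the knockdown and at 125 and 161, then 127 and 37.1 CPM in WT. Its mean log2 change of -1.60 passed (SE 0.307, edgeR adjusted p = 0.0348), while neither genotype's own change did (adjusted p = 0.0976 in the knockdown). Without the library labelled untreated knockdown replicate 2, the mean log2 changes of TRIM29 and KIF20A were -2.54 and -1.57. The knockdown's own change of KIF20A was then -2.36, beside -2.42 with all libraries. The number of calls for the average was 44 to 59 without any 1 knockdown library, 39 and 33 without untreated WT replicates 1 and 2 and 32 without irradiated WT replicate 1.

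Other G2 and mitosis genes, a list of 73 that left out the index genes, follow the same part of the cycle as the index, so their values describe the mitotic-high cells rather than test them. In WT 50 of the 72 tested members were lower and 22 higher. None passed, and 9 had unadjusted p-values under 0.05, where 6.93% of all genes tested had. The median log2 change was -0.09. Its sign turned with the library left out: it was -0.38 and 0.12 without irradiated WT replicates 1 and 2 and 0.06 and -0.21 without untreated WT replicates 1 and 2. In the knockdown 60 were lower and 12 higher. None passed, and 11 had unadjusted p-values under 0.05, where 6.66% of all genes tested had. The median was -0.33, and 30 were lower without overlap, where 17.8% of all genes tested were. That median was -0.18 and -0.50 without untreated knockdown replicates 1 and 2. CDK1, the mitotic kinase, was at 497 and 508, then 569 and 485 CPM in WT and 705 and 349, then 437 and 487 CPM in the knockdown. The cyclin gene CCNB2 was at 173 and 158, then 228 and 118 CPM in WT and 235 and 170.1, then 102 and 144 CPM in the knockdown. GTSE1, a microtubule-binding protein of G2 and S phase, was at 152 and 144, then 62.0 and 61.6 CPM in the knockdown (edgeR adjusted p = 0.262). Its WT libraries were at 138 and 104, then 168 and 105 CPM.

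**Figure D3:**
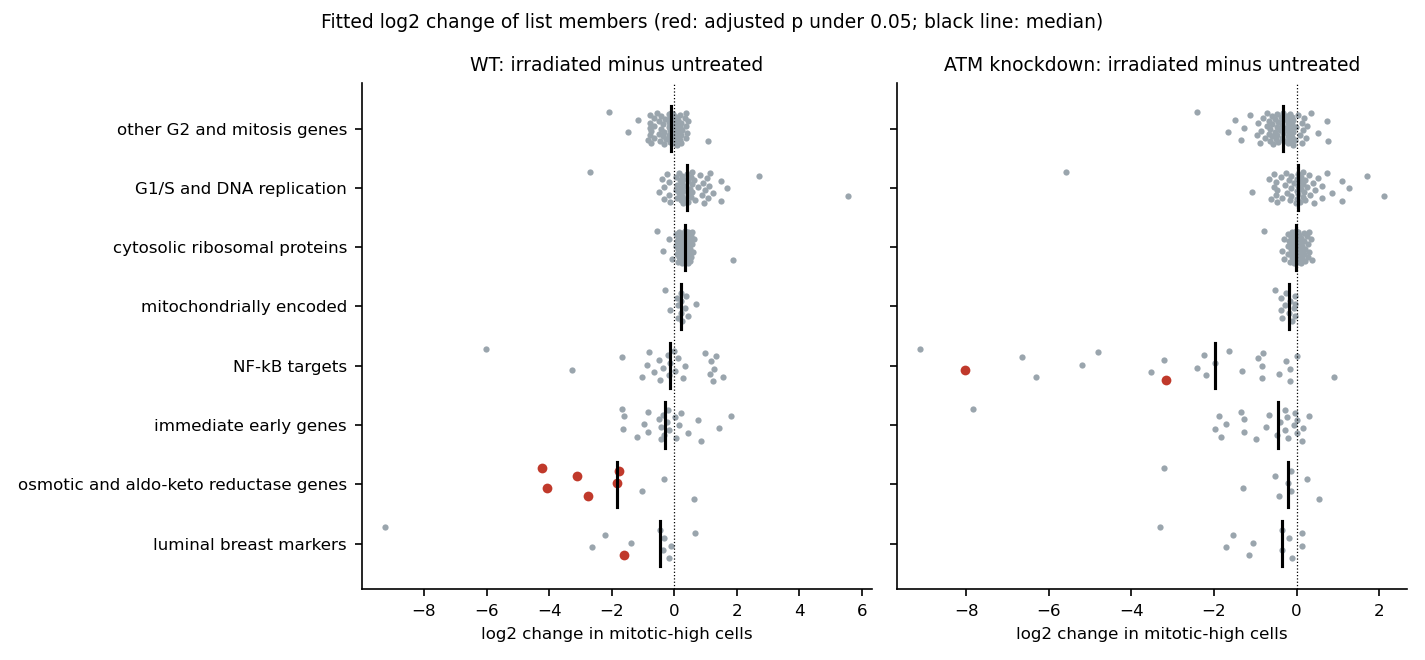
Fitted log2 change, irradiated minus untreated, of the tested members of 8 gene lists in mitotic-high cells of WT and ATM knockdown libraries, with 1 point per gene, red for an adjusted p below 0.05 and a black line at the list's median. Red points lie among the osmotic and aldo-keto reductase genes and the luminal markers in WT and among the NF-kB targets in the knockdown, where the median is -1.97, and points beyond about -5 belong to genes with few or no counts left.

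Genes of G1/S and DNA replication, which license origins, make deoxynucleotides and copy DNA, were next compared between the 2 classes of cells. In WT mitotic-high cells 45 of the 54 tested members (of 55) were higher after irradiation and 9 lower, with a median log2 change of 0.42. None passed, and 9 had unadjusted p-values under 0.05, where 6.93% of all genes tested had. The median was 0.70 and -0.01 without irradiated WT replicates 1 and 2 and 0.23 and 0.72 without untreated WT replicates 1 and 2. In the other WT cells 53 of 54 were higher with a median of 1.71, and 24 passed, where 119 of 11965 genes did (0.995%). Summed over the list, mitotic-high cells of untreated WT libraries held 3597 and 4554 CPM and those of irradiated ones 4186 and 6694 CPM. The other cells held 1225 and 1726, then 4115 and 5449.7 CPM. The irradiated other cells thus came near the levels of the mitotic-high cells. In the knockdown 31 of 54 were higher in mitotic-high cells with a median of 0.03 (0.01 to 0.15 with 1 library left out). That median was 0.38 without the largest cells, 0.39 with a smaller class and 0.34 with an equal share of each library. The WT medians in these runs were 0.55, 0.57 and 0.41. The knockdown median thus depended on the choice of cells. In the other knockdown cells 50 of 54 were higher with a median of 0.69, and none passed in either class. SLBP, which binds histone mRNA, was at 100.4 and 95.1, then 181 and 269 CPM in WT mitotic-high cells (log2 change 1.24).

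The difference between the 2 changes was fitted over 16 sums, 2 classes in each of 8 libraries, with the library as a block. Because the index sorts cells by cycle position, cell-cycle genes move with the rule in this comparison, and their values are given as a description. In WT 9 of 12280 genes passed (0.0733%), 1 upward (0.00814%) and 8 downward (0.0651%), and unadjusted p-values were under 0.05 for 507 genes (4.13%). Of the 54 replication genes 49 had a smaller change in mitotic-high cells, with a median difference of -1.41, beside 6049 of 12280 genes and 0.01 over all. RRM2, a subunit of ribonucleotide reductase, was at 177 and 169.6, then 223 and 451 CPM in WT mitotic-high cells and at 7.30 and 15.0, then 70.9 and 200.3 CPM in the other cells (difference -2.54, SE 0.3798, edgeR adjusted p = 0.000227). PCNA, the sliding clamp, was at 280.3 and 467, then 246 and 706 CPM against 97.7 and 129.6, then 346 and 529.6 CPM (difference -1.65, SE 0.321, edgeR adjusted p = 0.0128). The checkpoint adaptor gene CLSPN and the spindle gene SPDL1 differed by -1.99 and -2.18. MCM10, a replication factor, and FAM111B did not pass, with differences of -2.74 and -3.67, and the helicase subunit gene MCM4 was at 44.9 and 90.2, then 84.5 and 165 CPM in mitotic-high cells and 13.6 and 28.3, then 127 and 104 CPM in the other cells.

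Of genes outside the cell cycle, AKR1C1 differed in WT by -2.02 (SE 0.377, edgeR adjusted p = 0.00861), with 111 and 141 CPM in the irradiated other cells against 30.2 and 51.2 CPM in mitotic-high cells. SOD2, the mitochondrial superoxide dismutase and an NF-kB target, was at 87.9 and 59.9, then 67.8 and 60.4 CPM in mitotic-high cells and at 502 and 157, then 78.0 and 60.1 CPM in the other cells (difference 1.93, SE 0.382, edgeR adjusted p = 0.0128). Its annotated span overlaps WTAP. Without the library block no WT difference passed, and with cells thinned to 50000 counts none did either, so that of the 6 differences named here none passed under every alternative run. Without irradiated WT replicate 2 the count was 5, and it was 24 and 27 without untreated knockdown replicates 1 and 2 and 28 and 29 without irradiated knockdown replicates 1 and 2.

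**Figure D4:**
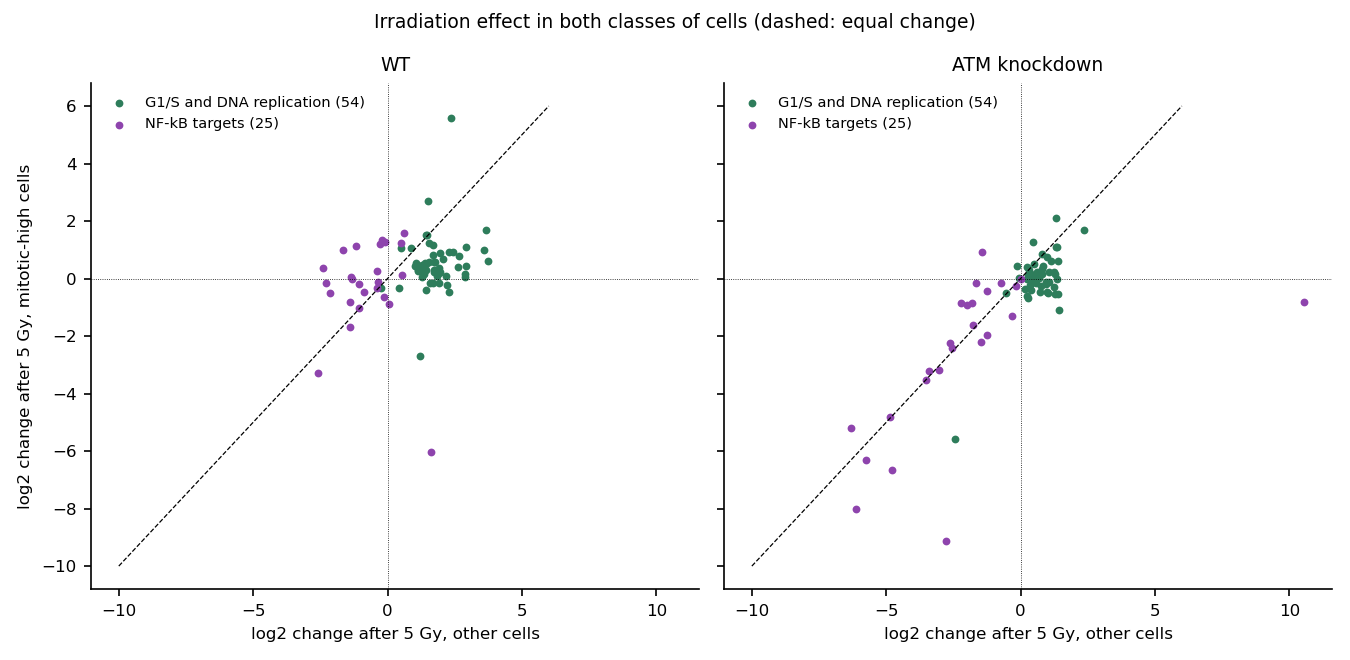
Fitted log2 change after 5 Gy in the other cells (horizontal) and in mitotic-high cells (vertical) for 54 G1/S and replication genes (green) and 25 NF-kB targets (purple), with a dashed line of equal change. In WT most green points lie below the line, with medians of 1.71 and 0.42, while in the knockdown purple points lie on both sides of it, and the points farthest out belong to genes with few or no counts in a group, whose fitted change is no bound.

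In the knockdown 13 of 12280 genes differed between the 2 classes (0.106%), 8 upward (0.0651%) and 5 downward (0.0407%), and for 685 genes (5.58%) the unadjusted p was under 0.05. The NF-kB targets were not among them, and their median difference was -0.02 over 28 tested members, with 15 lower and 13 higher. Its sign turned with the library left out, from -0.23 without untreated knockdown replicate 2 to 0.21 without irradiated knockdown replicate 1. Single members differed in either direction without passing: ICAM1, an adhesion molecule, had a log2 change of 0.92 in mitotic-high and -1.43 in other cells, and BIRC2 of -1.31 and -0.32. BIRC3 differed by -0.13 (SE 0.415) and CXCL8 by 0.67 (SE 0.807), which does not show that the classes responded alike. The mitotic genes CDCA8, GTSE1 and CDKN3 differed by -2.36, -2.78 and -1.75, having been at low levels in the other cells. CDCA8, a subunit of the chromosomal passenger complex, was at 304 and 188, then 217 and 121 CPM in mitotic-high cells and at 12.1 and 8.57, then 38.8 and 33.8 CPM in the other cells. ZBED6CL was at 30.8 and 27.1, then 51.9 and 17.3 CPM in mitotic-high cells and at 150.1 and 226, then 22.7 and 21.2 CPM in the other cells (difference 3.20, SE 0.455, edgeR adjusted p = 6.6e-05). PLAU, the urokinase gene, was at 437 and 207, then 74.9 and 205 CPM against 149 and 109, then 196 and 229 CPM in the other cells. SAA1 and SAA2 differed by 1.21 and 2.22 and TNFSF15 by 4.61. IFIT1 differed by 3.26, but 1 cell held 61.3% of its counts over the mitotic-high cells. The number of calls was 0 with cells thinned to 50000 counts and 1 without the block. Without the library labelled untreated knockdown replicate 2, which left 1 library in its group, all 9 named differences kept their direction. ZBED6CL was at 2.82, TNFSF15 at 5.14, SAA2 at 3.01, IFIT1 at 2.65 and SAA1 at 1.51. CDCA8 was at -2.45, GTSE1 at -2.62, CDKN3 at -1.87 and PLAU at -2.28. The count was 33 and 72 without untreated knockdown replicates 1 and 2 and 52 and 40 without irradiated knockdown replicates 1 and 2.

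Ribosomal protein genes stood slightly higher in irradiated WT mitotic-high cells: 68 of 72 tested members (of 75) were higher with a median log2 change of 0.35. None passed, and 32 had unadjusted p-values under 0.05. Over all genes tested in WT, 5582 of 11201 were higher and 6.93% had unadjusted p-values under 0.05. RPL10A was at 703 and 804, then 1226 and 1071 CPM. Summed over the list, untreated WT libraries held 70790.4 and 79452 CPM and irradiated ones 93209 and 90474 CPM. In the knockdown 33 were higher and 39 lower, with a median of -0.01 (-0.02 to 0.03 with 1 library left out). The 13 mitochondrially encoded genes had 11 members higher in WT (median 0.23) and 13 lower in the knockdown (median -0.18), none of which passed. The WT median was 0.07 without irradiated WT replicate 2, and the knockdown median -0.28 and -0.08 without untreated knockdown replicates 1 and 2. MT-CYB, a subunit of respiratory complex III, was at 7804 and 7902, then 9147 and 10229 CPM in WT and at 15109 and 15085, then 12144 and 11633 CPM in the knockdown. This list is also a measure of RNA quality, and its part in the other results was not tested.

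Immediate early genes, which serum and stress switch on within minutes, were mostly lower after irradiation without passing. Of 28 members 24 were tested. In WT 15 were lower and 9 higher with a median log2 change of -0.28 (-0.58 and -0.10 without irradiated WT replicates 1 and 2). Unadjusted p-values were under 0.05 for 6 of them, where they were for 6.93% of all genes tested. In the knockdown 20 were lower and 3 higher with a median of -0.44 (-0.67 and -0.81 without irradiated knockdown replicates 1 and 2), and 11 were lower without overlap, where 17.8% of all genes tested were. JUNB, a subunit of the transcription factor AP-1, was at 73.2 and 124, then 37.3 and 26.8 CPM in WT and at 21.99 and 28.2, then 10.1 and 10.8 CPM in the knockdown. Its log2 changes were -1.60 in WT (edgeR adjusted p = 0.422) and -1.28 in the knockdown (adjusted p = 0.689). DUSP4, a phosphatase that switches off MAP kinases, was at 339.9 and 461, then 189.7 and 153 CPM in WT and did not pass either (log2 change -1.20, edgeR adjusted p = 0.106).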

How the data were processed

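Gene counts per single cell were deposited as 1 table per library. Per the submitters' processing notes, Trimmomatic 0.36, HISAT2 2.1.0 and HTSeq 0.9.1 were used by the authors before they deposited the counts, with the build hg38, and the notes give these names with no order. Whether counts are reads or molecules, and whether strand was used, is not given in the sources used here. No doublet caller was run on these singly picked cells.

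Cells with at least 1000 genes and 5000 counts were kept, counts of mitotic-high cells were summed per library, genes were filtered with filterByExpr, libraries were scaled by TMM, and the 4 groups were fitted together with edgeR 4.0.16 in R 4.3.3 (quasi-likelihood, 4 residual degrees of freedom, common biological coefficient of variation 0.58). Single-library levels are CPM of summed counts. limma 3.58.1 and DESeq2 1.42.0 served as alternatives, beside other filters, scalings, class sizes, indices and each library left out. On simulated data of the WT comparison (10859 genes, 100 changed per fold size), 10% of genes changed 2-fold and 78% of those changed 4-fold were recovered with 5 false calls. For the difference between classes in WT these shares were 9% and 53%, with 2 false calls. The changed genes were drawn only from those averaging at least 5 in log2 CPM. Counts were simulated per sum with a smooth trend of the spread, without single cells that hold much of a gene's counts.

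The mitotic-high class, the gene lists and the tests were chosen with earlier results of these data known. Named genes were, for each genotype, the passing genes with average log2 CPM of at least 5 and groups that did not overlap (up to 10 per direction, or the 5 of smallest p where fewer passed), the members of smallest p of lists with a call, the 5 of smallest p per direction in the other comparisons, and a fixed set of cell-cycle, NF-kB and early response genes. CD9, TIMP3, CXCL3, IL1A, ICAM1, TNFSF10, NFKBIA, RPL10A, MT-CYB, NFAT5, DUSP4, ALPP, VEGFA, NDRG1, IFIT2, IFIT3 and HSPA8 were named outside this rule after their values were seen. Coordinates of all 90 named genes came from GENCODE 29, and promoter windows from RefSeq. Some genes and 1 gene list are not reported here.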

Additional observations from a re-analysis of the deposited data

Results flagged for a closer look

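The genotypes differed in their irradiation change for AKR1B1 (3.31 on the log2 scale, knockdown minus WT), AKR1C1 (3.95), TNFSF15 (6.15), SAA1 (1.95) and HSPH1 (1.69), each with the higher change in the knockdown, and for BIRC3 (-3.44) and PSAT1 (-2.73) with the lower. All were tested as an interaction in edgeR and passed at an adjusted p below 0.05. In the library labelled untreated knockdown replicate 2, ATM lay within the WT range in CPM, while its detection at equal depth did not decide between the labels. Without this library all 7 differences kept their direction, with AKR1B1 at 3.59, AKR1C1 at 4.07 and BIRC3 at -3.45. The calls of BIRC3, TNFSF15, PSAT1 and HSPH1 were each lost under other choices of cells or of test, as given above.

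The irradiation change in WT differed between mitotic-high and other cells for AKR1C1 (-2.02), CLSPN (-1.99), PCNA (-1.65), RRM2 (-2.54) and SPDL1 (-2.18), each with the lower change in mitotic-high cells, and for SOD2 (1.93) with the higher. In the knockdown it was lower in mitotic-high cells for CDCA8 (-2.36), CDKN3 (-1.75), GTSE1 (-2.78) and PLAU (-1.98) and higher for IFIT1 (3.26), SAA1 (1.21), SAA2 (2.22), TNFSF15 (4.61) and ZBED6CL (3.20). The cell-cycle genes among them move with the index that sorted the cells.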

How the results depend on the processing

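With 2 libraries a group and few mitotic-high cells in each, calls were limited to large changes and their number moved with nearly every choice. In WT, 16 genes passed. The number was 44 with the 182 highest cells as members, 10 without cells over 2 times their library's median, 70 without a filter on low counts, 29 with the WT libraries alone, 79 with DESeq2's Wald test, 29 with an equal share of each library, and 15 to 51 with 1 library left out. In the knockdown 2 passed. The number was 4 with at least 3000 genes per cell, 20 with the 182 highest cells, 5 with limma, 9 with the log index, 8 without the large cells, 62 without a filter, 4 with the 91 highest cells, 12 with cells thinned to 50000 counts, 55 with the Wald test, 14 with an equal share, and 11 to 44 with 1 library left out.

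For the average of both genotypes 20 passed. The number was 62 with the 182 highest cells, 13 with limma, 31 with the log index, 98 without a filter, 13 with the 91 highest cells, 90 with the Wald test, and 25 to 59 with 1 library left out. For the difference between genotypes 11 passed. The number was 26 with the 182 highest cells, 5 with limma, 51 without a filter, 33 with the Wald test, 31 with an equal share, and 10 to 46 with 1 library left out. For the difference between classes 9 passed in WT and 13 in the knockdown. The numbers were 2 and 3 with only genes averaging at least 5 in log2 CPM, 0 and 1 without the library block, 0 and 0 with thinned cells, 2 in WT with an equal share, 26 in the knockdown with the 182 highest cells, and 5 to 29 and 14 to 72 with 1 library left out. With 1 library left out, the lone library of its group was assumed to vary like the other groups. The cause of these shifts was not tested. Other scalings moved the median gene by at most 0.04 in size (-0.04 in WT with no scaling beyond library totals). The median of the NF-kB list in the knockdown ran from -2.40 to -1.34. No paired analysis was possible because replicate numbers were given in accession order and pair no libraries.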

Other observations

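Further lists drawn up with earlier results known gave these values in mitotic-high cells, each median followed by its range with 1 library left out. Homologous recombination and Fanconi genes, which repair broken and crosslinked DNA, were higher in WT for 25 of 33 members with a median log2 change of 0.51 (0.15 to 0.53, lowest without irradiated WT replicate 2), and for 16 of 33 in the knockdown with a median of -0.02 (-0.29 to 0.08), and none passed. Genes of the G2 checkpoint and mitotic entry were higher for 14 of 28 in WT (median 0.02, -0.03 to 0.19) and 13 of 28 in the knockdown (median -0.13, -0.51 to 0.23). Replication-dependent histone genes were higher for 8 of 14 in WT (median 0.10, -0.23 to 0.35) and 4 of 14 in the knockdown (median -0.44, -0.98 to -0.07).

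Hypoxia and glycolysis genes were lower for 19 of 30 in WT (median -0.11, -0.26 to -0.11) and for 21 of 30 in the knockdown (median -0.19, -0.29 to -0.18), and none passed. VEGFA, the vessel growth factor, was at 192 and 112, then 34.8 and 43.7 CPM in WT (log2 change -1.91, edgeR adjusted p = 0.0650). NDRG1, a stress-induced gene, was at 305 and 342, then 63.2 and 125 CPM in WT (edgeR adjusted p = 0.109). Of the heat shock proteins 6 of 11 were higher in WT (median 0.11, -0.11 to 0.14), where HSPH1 was the 1 that passed, downward, and 8 of 11 in the knockdown (median 0.21, 0.16 to 0.37). The chaperone HSPA8 was at 1848 and 1639, then 2772 and 2297 CPM in the knockdown (log2 change 0.53, edgeR adjusted p = 0.519). Of apoptosis regulators 13 of 25 were higher in WT (median 0.09, -0.09 to 0.14) and 8 of 25 in the knockdown (median -0.10, -0.74 to -0.02).

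Interferon-induced genes showed no shared direction. Of 25 tested members 12 were higher and 13 lower in WT (median -0.02, -0.60 to 0.61), and 10 were higher and 14 lower in the knockdown (median -0.51, -0.62 to 0.06), and none passed. For IFIT3 and IFIT2, picked after their values were seen, irradiated WT replicate 1 stood apart. IFIT3, an antiviral RNA-binding protein, was at 100.4 and 45.6, then 649 and 56.7 CPM, with 31.2% of its counts in 1 cell. IFIT2 was at 27.4 and 6.19, then 448 and 8.51 CPM, with 35.2% of its counts in 1 cell.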
